A study of Rattus norvegicus with 12 samples.

Results

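Diabetic skin wounds on day 14 were compared with diabetic skin wounds on day 7, in the 8 libraries of those days out of the 12 libraries of the series. The libraries were chosen by their labelled day, 4 on day 7 and 4 on day 14, and each day held 1 library from each of 4 wound treatments. All rats were male SD rats of 8 to 12 weeks made diabetic with streptozotocin (STZ), a toxin of the insulin-producing beta cell, and carried a full-thickness circular punch wound on the shaved back. The treatments were saline (control), the dried mucus gel of the snail *Achatina fulica* (d-SMG), the glycosaminoglycan isolated from that gel (s-GAG) and a commercial alginate dressing (Alg). There was no non-diabetic and no unwounded group in the comparison. STZ-diabetic rats were described by the study as an incomplete model of the human diabetic foot ulcer. The labels did not say how many rats went into a library, and the wounds of the 2 days came from different rats. The 4 treatments therefore stood in as the replicates of a day, so that a change with time that differed between treatments counted as spread.

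Healing skin first closes the defect with granulation tissue, in which fibroblasts lay down a provisional matrix and new vessels grow. In the remodelling that follows, this matrix is replaced by mature collagen, vessels and fibroblasts are thinned out, and the epidermis that has crossed the wound rebuilds its cornified layer. Hair follicles normally stay absent from the centre of such a wound but are present in the skin at its edge. The comparison of day 14 with day 7 asked which transcripts differed between these 2 stages.

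Most transcripts of the young wound matrix had lower fitted levels on day 14, and those of the cornifying epidermis and of the hair follicle had higher ones. In the fit over the 4 pairs *Col24a1*, a minor fibrillar collagen, was 6.23-fold lower on day 14, and *Tnn*, the matrix glycoprotein tenascin-N, 7.19-fold lower. Both were lower in all 4 treatments, with log2 changes of -3.20 to -1.98 for *Col24a1* and -3.38 to -2.34 for *Tnn*. Of 14 fibrillar and fibril-associated collagens, 13 had a negative fitted change, whereas all 21 suprabasal and cornified keratinocyte genes tested and all 27 hair follicle genes had a positive one. With 4 pairs of unlike treatments no single gene passed correction over all genes, and the values that follow are to be read with that limit. The quasi-likelihood test of edgeR called 0 of 14895 genes (0.0%) at a false discovery rate (FDR) under 0.05, and the smallest adjusted p-value was 0.743. At an unadjusted p under 0.05 it found 306 genes higher on day 14 (2.05%) and 216 lower (1.45%), together 522 genes (3.5%), where evenly spread p-values would give 745. On the same genes DESeq2 called 38 higher and 28 lower at an FDR under 0.05, with 421 and 425 at an unadjusted p under 0.05, and limma-voom called 0, with 354 and 246. The edgeR counts leaned on single treatments: the higher genes numbered 179 without the control pair, 182 without the d-SMG pair and 479 without the Alg pair, and the lower genes 83 without the d-SMG pair and 620 without the Alg pair. Without the s-GAG pair they were 412 and 246.

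Gene levels are given as CPM, the read count scaled to a common library total after TMM normalization over the 8 libraries, always in the order control, d-SMG, s-GAG and Alg. Fold changes are fitted log2 ratios of day 14 over day 7 with their standard errors over 4 pairs, with two-sided tests. In edgeR the adjusted p-value was at least 0.743 for each gene and is not repeated. A difference is called nominal where its unadjusted p in edgeR was under 0.05. The adjusted p-value of DESeq2 is added only where it was under 0.05. Nominal genes such as *Inhba* (0.0648), *Mmp12* (0.0797), *Aspn* (0.0893) and *Ccl7* (0.146) did not pass by DESeq2. In limma-voom the adjusted p-value was 0.582 for *Tnn* and 0.89 for *Postn* and *Krt2*. DESeq2 alone called genes in the day comparison, so these calls rest on that tool. Reads on genes ranged from 13748887 to 38302461 in these libraries. The skin genes *Krt14* (2429 to 25179 CPM), *Col1a1* (2204 to 15338 CPM) and *Dcn* (249 to 1339 CPM) were present in every library. The share of reads on 20 skeletal muscle genes differed widely, at 7.33, 0.918, 5.9 and 16.6% on day 7 and 8.21, 1.21, 11.7 and 1.61% on day 14. The s-GAG library of day 14 stood apart from the others, with 14.2% of its reads on cytosolic ribosomal protein genes against 3.03 to 6.39% in the other 7 libraries and a TMM factor of 0.728 against 0.941 to 1.195. Counting error on such shares was small, with 95% Wilson intervals no wider than ± 0.0195 percentage points, and covers counting alone. The deposited FPKM values, scaled by transcript length and library total, summed to 653222 in the s-GAG library of day 14, against 380244 to 453782 in the other 7. The part of this in the levels of long transcripts in that library was not tested. List medians are therefore given without the s-GAG pair as well. In bulk tissue, fewer cells of a type and less RNA per cell cannot be told apart.

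The promoters of the genes with the smallest p-values in each direction are shown for reference, because their direction was the same in every treatment. Each window runs 5′ to 3′ on the gene's strand from 250 bases before to 50 bases after the start listed by RefSeq on GRCr8, the first listed where there are several. Capitals mark matches, on either strand, to the TATA box (TATAAA), the AP-1 motif (TGANTCA) and the CCAAT box (CCAAT).
*Col24a1*, lower on day 14, chr2:236872384-236872683, plus strand: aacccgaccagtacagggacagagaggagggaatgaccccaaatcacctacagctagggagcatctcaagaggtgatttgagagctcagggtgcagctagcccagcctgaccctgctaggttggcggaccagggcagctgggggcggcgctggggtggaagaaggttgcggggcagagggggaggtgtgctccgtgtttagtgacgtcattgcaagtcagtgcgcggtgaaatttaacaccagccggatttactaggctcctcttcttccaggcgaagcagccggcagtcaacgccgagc
*Tnn*, lower on day 14, chr13:74919740-74920039, minus strand: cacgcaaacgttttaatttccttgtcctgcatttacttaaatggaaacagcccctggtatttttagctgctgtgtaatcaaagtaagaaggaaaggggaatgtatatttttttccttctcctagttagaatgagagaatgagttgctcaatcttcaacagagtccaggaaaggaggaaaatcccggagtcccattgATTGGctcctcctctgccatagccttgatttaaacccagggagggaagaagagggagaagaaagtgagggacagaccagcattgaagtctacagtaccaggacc
*Gnmt*, higher on day 14, chr9:21752032-21752331, plus strand: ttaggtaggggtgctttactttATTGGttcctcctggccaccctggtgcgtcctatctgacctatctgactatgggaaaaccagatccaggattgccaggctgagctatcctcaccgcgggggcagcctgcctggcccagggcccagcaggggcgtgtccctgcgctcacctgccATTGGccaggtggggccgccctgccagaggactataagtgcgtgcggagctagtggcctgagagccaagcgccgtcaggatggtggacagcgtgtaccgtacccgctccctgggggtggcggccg
*Rbp4*, higher on day 14, chr1:245313502-245313801, minus strand: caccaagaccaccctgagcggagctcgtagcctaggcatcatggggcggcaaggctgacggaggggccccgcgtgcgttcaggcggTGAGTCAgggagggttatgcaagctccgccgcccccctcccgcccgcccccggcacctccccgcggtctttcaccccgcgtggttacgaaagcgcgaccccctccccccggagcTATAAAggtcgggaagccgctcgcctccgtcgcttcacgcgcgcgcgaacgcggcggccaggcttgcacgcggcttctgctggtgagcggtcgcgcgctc
The *Col24a1* window held none of the 3 motifs. The *Tnn* window held 1 CCAAT box and the *Gnmt* window 2, each read on the opposite strand, and the *Rbp4* window held a TATA box and an AP-1 match. Over all 33469 promoter windows of the table, the TATA box was present in 14.2%, the AP-1 motif in 7.33% and the CCAAT box in 37.5%. RefSeq windows were matched for 9 of the 12 lower and 8 of the 12 higher genes described next. The AP-1 motif was found in 0 of the 9 and in 3 of the 8, those of *Rbp4*, *Tmem54* and *Cxcl14*, and these matches are letters in a window, not shown to be sites.

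Matrix genes led the genes that were lower on day 14. *Col24a1* was measured at 101, 33.8, 11.6 and 43.1 CPM on day 7 and 11, 4.61, 2.86 and 8.0 CPM on day 14. Every day 14 value was below every day 7 value, and the s-GAG wound held the lowest level on both days. The fitted log2 change was -2.64 ± 0.34 (adjusted p = 0.743 in edgeR), and -2.84 without the s-GAG pair. *Tnn*, which is made by activated fibroblasts and bone-forming cells, was measured at 1334, 851, 193 and 383 CPM on day 7 and 128, 98.5, 32.8 and 75.8 CPM on day 14. Its groups did not overlap either, and the change was -2.85 ± 0.38 (nominal, adjusted p = 1.46e-10 in DESeq2). By DESeq2 the adjusted p-value of *Col24a1* was 8.19e-08. Groups that did not overlap in this way were found for 85 genes lower on day 14 (0.571% of those tested) and 142 genes higher (0.953%).

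The remaining genes of the 12 with the smallest p-values on the lower side included further matrix components and their modifiers. *Prss35*, a secreted serine protease-like protein, was measured at 151, 109, 19 and 61.4 CPM on day 7 and 15.9, 16.3, 6.34 and 4.29 CPM on day 14, and its change was -2.86 ± 0.44. All its day 14 values lay below all its day 7 values. *Fbn2*, the fibrillin of developing elastic microfibrils, was measured at 124, 35, 7.74 and 16 CPM on day 7 and 10, 9.73, 0.697 and 5.12 CPM on day 14, with a change of -2.61 ± 0.47. *Fbn2* rested on 10 reads in the s-GAG wound of day 14. Its groups overlapped because the s-GAG wound on day 7 was below the control and d-SMG wounds on day 14, although each treatment was lower on day 14 than on day 7. *Col27a1*, another minor fibrillar collagen, was measured at 254, 113, 24.9 and 77.5 CPM on day 7 and 35.4, 34.1, 12.8 and 21.6 CPM on day 14, a change of -1.84 ± 0.39. *Adamts16*, a secreted metalloprotease, was measured at 15.7, 7.87, 1.04 and 2.44 CPM on day 7 and 2.41, 1.98, 0.0697 and 0.448 CPM on day 14, the s-GAG day 14 value resting on 1 read. Both followed the same order of treatments on day 7, with the control wound highest and the s-GAG wound lowest.

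*Plekhg4* had the largest change of these genes at -3.20 ± 0.53, from 13.1, 15.6, 2.33 and 5.36 CPM on day 7 to 0.885, 0.896, 0.767 and 0.64 CPM on day 14. Its 4 day 14 values were close together and below all day 7 values, but rested on 18, 14, 11 and 10 reads. *C1qtnf3* (*CTRP3*, a secreted C1q-domain protein) changed by a fitted -2.41 ± 0.56, *Nrk*, a kinase, by -1.71 ± 0.40, *Akap5*, an anchoring protein of protein kinase A, by -2.10 ± 0.48, and *Hhipl1* by -1.46 ± 0.34. All 12 genes were lower in 4 of 4 pairs, as were 645 of all genes tested (4.33%), and 5 of the 12 had groups that did not overlap. Each kept p under 0.05 without the s-GAG pair, and each passed an FDR of 0.05 by DESeq2. The 12 had been taken by their p-values in the same libraries (8.04e-05 to 0.00313), so these counts and calls describe them and test nothing. On day 7 the control wound was the highest for 11 of the 12 and the s-GAG wound the lowest for 11.

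**Figure D1:**
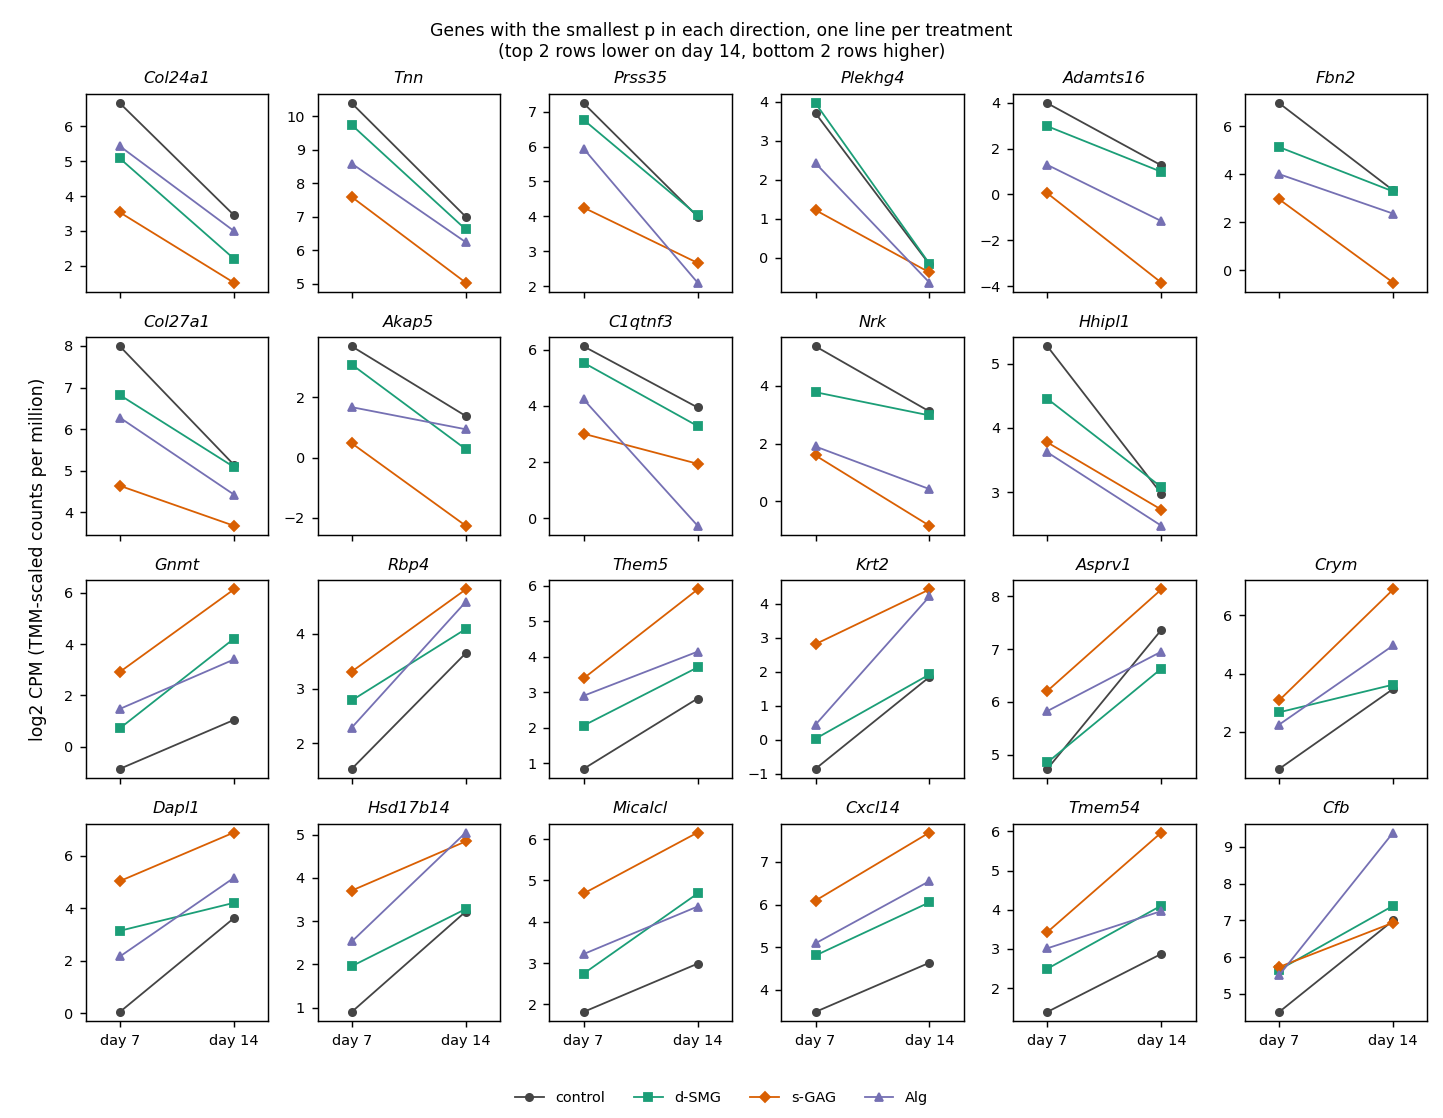
Level of 11 of the 12 lower and of all 12 higher genes with the smallest p-values, as log2 CPM on the vertical axes, on day 7 and day 14, with 1 line for each treatment pair. All lines of the top 2 rows run down and all lines of the bottom 2 rows run up, while the spread between treatments within a day is often as large as the change; *Col24a1* goes from 11.6 to 101 CPM on day 7 to 2.86 to 11 CPM on day 14.

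The 14 fibrillar and fibril-associated collagens had a median log2 change of -0.90, against 0.0048 for all genes tested. Of these, 6 had an unadjusted p under 0.05 and all 6 were lower, beside 1.45% of all genes. In the single pairs the medians were -1.03, -1.61, -1.08 and 0.26, so the Alg pair had the opposite sign to the other 3. With 1 pair left out the median ran from -1.56 (without Alg) to -0.57 (without s-GAG). Without the s-GAG pair 3 genes had p under 0.05. The collagens lowest relative to day 7 were those that associate with or nucleate fibrils. *Col12a1*, which links fibrils to their surroundings, was measured at 3422, 1009.9, 217 and 437 CPM on day 7 and 226, 188, 54.3 and 213 CPM on day 14 (change -2.33 ± 0.55, nominal, adjusted p = 9.45e-04 in DESeq2). *Col11a1*, which sets fibril diameter, was measured at 159.6, 109, 36 and 36.3 CPM on day 7 and 31.4, 22.7, 4.25 and 32.3 CPM on day 14 (change -2.0 ± 0.52, nominal, adjusted p = 0.0184 in DESeq2). Every treatment was lower on day 14 for both, and the groups of *Col11a1* did not overlap. *Col5a1*, *Col5a2* and *Col5a3*, the chains of fibril-nucleating collagen V, had changes of -1.34, -1.25 and -1.70, and *Col6a3* of -1.41.

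The abundant collagens had no common direction. *Col1a1*, the main chain of dermal collagen I, was measured at 15338, 7687, 2204 and 3627 CPM on day 7 and 10448, 6533, 4741 and 4056 CPM on day 14. It was lower on day 14 in the control and d-SMG wounds and higher in the s-GAG and Alg wounds, and the fitted change was 0.11 ± 0.48 (not nominal). *Col3a1*, the collagen of early granulation tissue, had a change of -0.24 ± 0.48 (not nominal), and *Col1a2* of -0.04 ± 0.41. The standard errors were larger than these 3 changes. In FPKM, fragments scaled by transcript length and library total as deposited, *Col1a1* stood at 2349.6, 1420.1, 356 and 529.7 on day 7 and 1645, 1136, 553 and 681 on day 14. On the same FPKM scale the levels of *Col12a1* were 259, 92, 17.3 and 31.5 and 17.6, 16.1, 3.13 and 17.6, so that the ratio between the 2 genes widened in each treatment.

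Genes that process and crosslink collagen were also mostly lower, with 16 of 18 negative, a median of -0.41 and pair medians of -1.07, -0.75, -0.32 and 0.35. With 1 pair left out the median ran from -0.67 (without Alg) to -0.24 (without control), and it was -0.52 without the s-GAG pair. *Plod2*, the telopeptide lysyl hydroxylase associated with fibrotic crosslinks, was measured at 67.1, 21.2, 12.1 and 10.4 CPM on day 7 and 10.3, 6.02, 2.23 and 8.13 CPM on day 14. Its groups did not overlap and its change was -1.85 ± 0.46 (nominal, adjusted p = 0.0257 in DESeq2). *Adamts14*, which trims procollagen N-propeptides, was lower in every pair, with a change of -1.76 ± 0.46 (nominal, adjusted p = 0.0486 in DESeq2), whereas its relative *Adamts2* had a change of 0.60 ± 0.46. *Lox*, the lysyl oxidase that starts crosslinking, showed -0.43 ± 0.52 with all pairs and 0.03 without the s-GAG pair, its sign resting on that pair.

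Among 15 genes of the provisional and matricellular matrix, 11 were negative, with a median of -0.84 and pair medians of -1.62, -0.70, -0.29 and 0.40. With 1 pair left out the median stayed negative but shrank to -0.51 without the s-GAG pair, -0.55 without the d-SMG pair and -0.41 without the control pair. *Postn* (periostin), which binds collagen in healing dermis, was measured at 1270.2, 1807, 588 and 736 CPM on day 7 and 634, 449, 269.8 and 317 CPM on day 14, a change of -1.34 ± 0.37 (nominal, adjusted p = 0.049 in DESeq2). Each treatment was lower on day 14, while the control value on day 14 was above the s-GAG value on day 7, so the groups overlapped. *Spp1* (osteopontin), made by macrophages and fibroblasts, was measured at 188, 955, 54 and 197 CPM on day 7 and 23.7, 96.9, 33.7 and 109 CPM on day 14, a change of -1.95 ± 0.58 (nominal, adjusted p = 0.0329 in DESeq2). Its highest value was the d-SMG wound of day 7. *Thbs2* had a change of -0.84 (nominal), and *Has1*, a hyaluronan synthase, went the other way at 1.35 (nominal). *Fn1*, the fibronectin of the provisional matrix, showed -0.94 ± 0.54 (not nominal).

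Of 14 mature dermal matrix genes, 6 were positive and 8 negative, around a median of -0.01 (-0.19 without the s-GAG pair). *Aspn*, a small proteoglycan that binds collagen, was the member past an unadjusted p of 0.05, at 59.1, 64.4, 23.6 and 21.6 CPM on day 7 and 18.5, 15.7, 15.1 and 10.6 CPM on day 14 (change -1.35 ± 0.34). Its groups did not overlap. *Prelp*, a relative that anchors basement membranes, was higher in 4 of 4 pairs, with a change of 0.68 ± 0.32 (not nominal), and *Eln*, elastin, showed 0.46 ± 0.48.

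Among 21 matrix metalloproteinase and inhibitor genes tested, 15 were negative with a median of -0.33 (-0.52 with 9 positive without the s-GAG pair). The pair medians were -1.39, -0.52, -0.68 and 0.71, so the Alg pair had the opposite sign. *Mmp12*, the elastase of macrophages, was measured at 43.7, 86.5, 10.7 and 20.6 CPM on day 7 and 10.5, 19.4, 10 and 5.57 CPM on day 14, a change of -1.58 ± 0.43 (nominal). It was lower in each pair, by little in the s-GAG wound. *Mmp3*, stromelysin, had the opposite sign at 1.36 ± 0.64 (not nominal), and 2.02 without the s-GAG pair, in which it was lower on day 14. *Mmp7* and *Mmp10* were below the read filter.

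Vessel genes shared the direction of the matrix genes. Of 22 endothelial and angiogenic genes, 21 were negative, with a median of -0.62, pair medians of -0.99, -1.17, -0.87 and 0.59 and a median of -0.57 without the s-GAG pair. Of these, 2 had p under 0.05, both lower, beside 1.45% of all genes, and 0 without the s-GAG pair. *Sox17*, a transcription factor of arterial endothelium, was measured at 9.05, 10.4, 8.5 and 8.9 CPM on day 7 and 7.62, 2.88, 2.79 and 5.76 CPM on day 14, with no overlap and a change of -1.07 ± 0.40 (nominal). *Cdh5*, the cadherin of endothelial junctions, was measured at 245, 213, 88.3 and 72.1 CPM on day 7 and 84.6, 43.3, 17.8 and 109 CPM on day 14. It was lower in the control, d-SMG and s-GAG wounds and higher in the Alg wound, a change of -1.44 ± 0.56 (nominal). *Pecam1* showed -0.59 ± 0.39 and *Kdr*, the main receptor for vascular endothelial growth factor, -0.86 ± 0.44. *Vegfa*, its ligand, showed -0.38 ± 0.38.

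In the transforming growth factor beta pathway the 3 ligands *Tgfb1*, *Tgfb2* and *Tgfb3* had changes of 0.12, 0.18 and 0.26, none with p under 0.05. *Inhba*, the activin A subunit, was measured at 395, 63, 28 and 58.6 CPM on day 7 and 24.7, 34.7, 4.39 and 41.6 CPM on day 14, a change of -1.97 ± 0.65 (nominal). The control wound on day 7 was far above all the others. *Tgfbr1*, the type I receptor, had a change of -1.26 ± 0.44 (nominal) and was higher on day 14 in the Alg wound alone. Neither gene was nominal without the s-GAG pair. Over the 16 genes the median was 0.03, and 0.16 without the s-GAG pair. The 15 contractile genes of myofibroblasts and smooth muscle had a median of -0.27 (-0.31 without the s-GAG pair) and 0 with p under 0.05, and *Acta2*, their usual marker, was measured at 347, 218, 117 and 148 CPM on day 7 and 135, 137, 166 and 159 CPM on day 14, with overlapping groups.

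**Figure D2:**
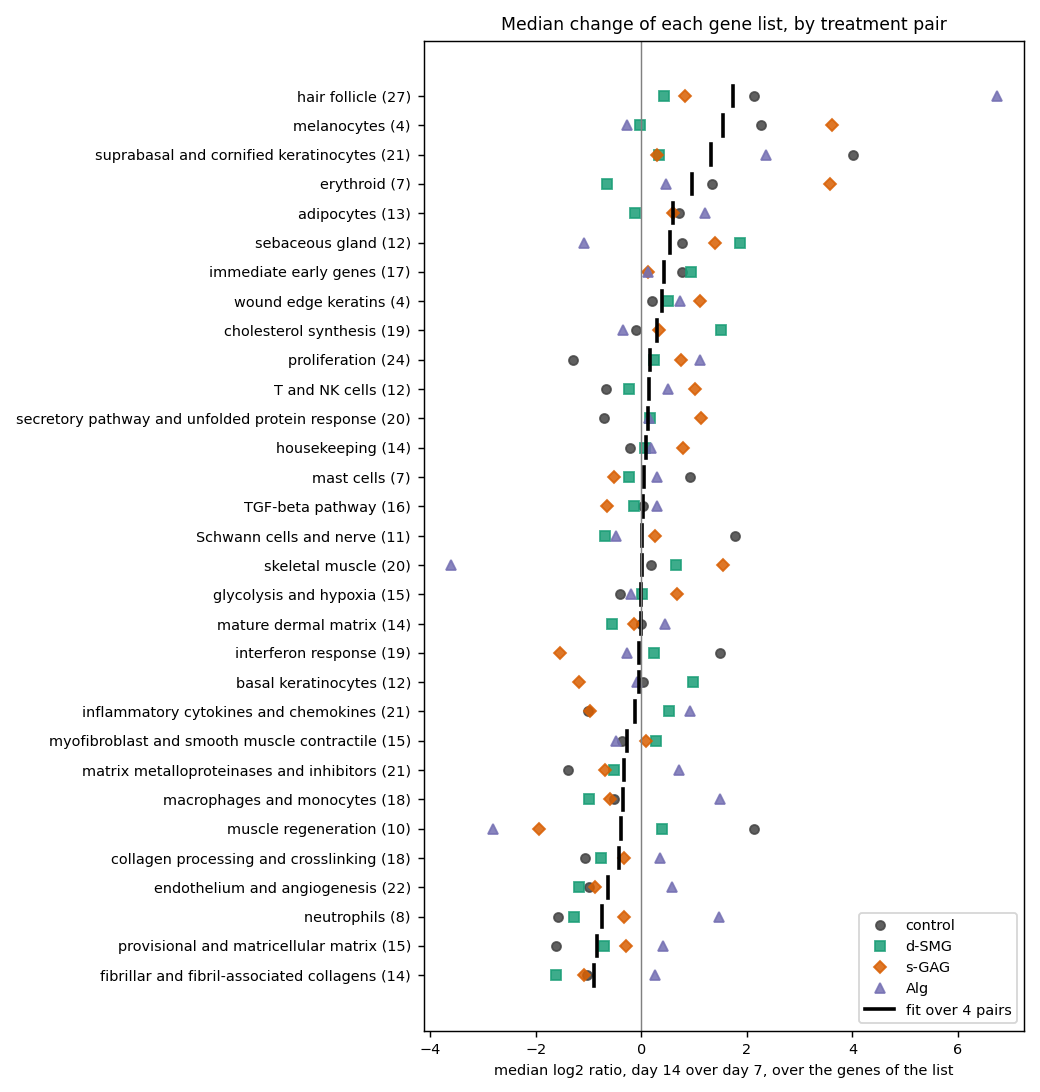
Median log2 ratio of day 14 over day 7 for each gene list, with the number of genes tested in brackets; coloured symbols are the medians within 1 treatment pair and black bars the medians of the change fitted over the 4 pairs. The collagen list has 3 pairs between -1.61 and -1.03 and the Alg pair at 0.26, and the hair follicle list has all 4 pairs above 0, the Alg pair farthest at 6.74.

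The genes of the cornifying epidermis lay on the higher side. All 21 suprabasal and cornified keratinocyte genes tested had a positive fitted change, with a median of 1.33, and 5 had p under 0.05 beside 2.05% of all genes. The pair medians were 4.01, 0.34, 0.30 and 2.36, and with 1 pair left out the median ran from 0.80 (without control) to 2.45 (without d-SMG), with 2.28 without the s-GAG pair. *Krt2*, a late keratin of the upper epidermis, was measured at 0.552, 1.02, 7.01 and 1.36 CPM on day 7 and 3.59, 3.78, 21.3 and 18.5 CPM on day 14. Each treatment was higher on day 14, but the s-GAG wound of day 7 exceeded the control and d-SMG wounds of day 14. Its change was 2.45 ± 0.47 (nominal, adjusted p = 8.08e-04 in DESeq2), and 2.79 without the s-GAG pair. *Ivl* (involucrin), a scaffold of the cornified envelope, was measured at 2.83, 9.61, 61.5 and 13.2 CPM on day 7 and 189, 43.1, 175 and 199 CPM on day 14, a change of 3.31 ± 0.80 (nominal, adjusted p = 1.45e-04 in DESeq2). The d-SMG wound of day 14 was the one that stayed below the day 7 maximum. The other list members with p under 0.05 were *Lce1m*, *Cnfn* and *Sbsn*, with changes of 2.83, 1.79 and 1.28.

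*Asprv1*, the protease that matures profilaggrin, was not on the list and was measured at 26.5, 28.8, 73.9 and 56.7 CPM on day 7 and 165, 99.1, 281 and 124 CPM on day 14. Its groups did not overlap, and its change was 1.87 ± 0.36 (nominal, adjusted p = 0.00214 in DESeq2). The most abundant suprabasal keratins varied too much between treatments for such a value. *Krt10*, the keratin of the spinous layer, was measured at 26.4, 90.3, 106 and 144 CPM on day 7 and 2349, 25.9, 130.2 and 1799 CPM on day 14. It was higher on day 14 in the control, s-GAG and Alg wounds and lower in the d-SMG wound (change 2.06 ± 1.57, not nominal). The 12 basal keratinocyte genes had a median of -0.05, with 6 positive and 6 negative, and of 0.31 with 10 positive without the s-GAG pair. *Krt15*, a keratin of basal and follicle bulge cells, had a change of 1.23 ± 0.51 (nominal), and *Krt14*, the basal keratin, of 0.62 ± 0.52.

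Hair follicle genes were higher in the fit for 27 of 27 members, with a median of 1.73 and 8 with p under 0.05, beside 2.05% of all genes. The pair medians were 2.13, 0.42, 0.82 and 6.74, and with 1 pair left out the median ran from 0.84 (without Alg) to 3.50 (without d-SMG), with 2.87 without the s-GAG pair. The list took 0.00906, 0.4, 0.883 and 0.0462% of reads on day 7 and 0.271, 0.527, 0.493 and 5% on day 14. The Alg wound of day 14 was thus far above all others, while the s-GAG share was lower on day 14 than on day 7. *Krt35*, a hair shaft keratin, was measured at 0.276, 43, 141 and 4.69 CPM on day 7 and 2.16, 104, 845 and 276 CPM on day 14 (change 3.06 ± 0.79, nominal, adjusted p = 8.56e-04 in DESeq2). *Krt25*, a keratin of the inner root sheath, was measured at 2.9, 233, 487 and 32.2 CPM on day 7 and 62.4, 410.2, 1984 and 1525 CPM on day 14 (change 3.19 ± 0.91, nominal, adjusted p = 7.29e-04 in DESeq2). Both were higher in 4 of 4 pairs, yet levels ranged over orders of magnitude within a day, and the groups overlapped. Reads of near-identical hair keratins could be split between copies in counting, so single members of that family are uncertain.

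*Krt17*, a keratin of hair follicles and activated epidermis, was measured at 202, 767, 2403 and 1136 CPM on day 7 and 632, 2613, 7923 and 1858 CPM on day 14. It was higher in each pair, with a change of 1.47 ± 0.41 (nominal, adjusted p = 0.0329 in DESeq2), whereas *Krt6a*, the other classical wound keratin, showed 0.03 ± 0.47. The paralog *Krt6b* was not found among the counted genes. Whether reads of near-identical keratins were counted to *Krt6a* was not examined, so its value is uncertain. The 12 sebaceous gland genes were all positive in the fit, with a median of 0.55 (0.47 with 10 positive without the s-GAG pair), 0 with p under 0.05 and a negative median in the Alg pair (0.77, 1.87, 1.40 and -1.08 in the 4 pairs). *Awat1*, a wax synthase of sebocytes, showed 1.51 ± 0.76.

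The 12 genes with the smallest p-values on the higher side were mostly not members of the lists. *Gnmt*, the glycine N-methyltransferase known for buffering methyl groups in liver, was measured at 0.552, 1.65, 7.56 and 2.78 CPM on day 7 and 2.06, 18.5, 69.9 and 10.6 CPM on day 14. Each treatment was higher on day 14, with a change of 2.68 ± 0.42 (nominal, adjusted p = 2.23e-05 in DESeq2), and the control wound was lowest on both days. *Rbp4*, the plasma carrier of retinol, was measured at 2.9, 6.9, 9.94 and 4.89 CPM on day 7 and 12.5, 17, 28.1 and 24 CPM on day 14, with no overlap and a change of 1.79 ± 0.33 (nominal, adjusted p = 0.00378 in DESeq2). *Crym*, a thyroid hormone binding protein, was measured at 1.66, 6.36, 8.47 and 4.75 CPM on day 7 and 11.1, 12.3, 118 and 31.2 CPM on day 14, again without overlap (change 2.57 ± 0.51). *Cxcl14*, a chemokine made by resting epidermis, was measured at 11.2, 28, 68.3 and 34.1 CPM on day 7 and 24.9, 66.4, 206 and 93.7 CPM on day 14, a change of 1.36 ± 0.29 (nominal, adjusted p = 0.0291 in DESeq2). Its 4 pairs moved by similar amounts, at 1.15, 1.24, 1.59 and 1.46 on the log2 scale.

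*Cfb*, complement factor B of the alternative pathway, was measured at 22.7, 50.4, 53.1 and 45.5 CPM on day 7 and 128, 169, 122 and 672 CPM on day 14, with no overlap and a change of 2.31 ± 0.51 (nominal, adjusted p = 0.00106 in DESeq2). The Alg wound of day 14 was the highest. *Dapl1*, a gene of differentiating epithelium, had a change of 2.33 ± 0.48, *Hsd17b14*, a steroid dehydrogenase, of 1.82 ± 0.37, *Them5*, a mitochondrial thioesterase, of 1.84 ± 0.34, *Micalcl* of 1.44 ± 0.30 and *Tmem54* of 1.65 ± 0.36. The 12 genes were higher in 4 of 4 pairs, as were 943 of all genes tested (6.33%), and 4 had groups that did not overlap. Each kept p under 0.05 without the s-GAG pair, and each passed an FDR of 0.05 by DESeq2. These 12 too had been taken by their p-values in the same libraries (0.000291 to 0.00234), so these counts and calls describe them and test nothing. For all 12 the control wound was lowest and the s-GAG wound highest on day 7, and on day 14 the s-GAG wound was highest for 10.

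**Figure D3:**
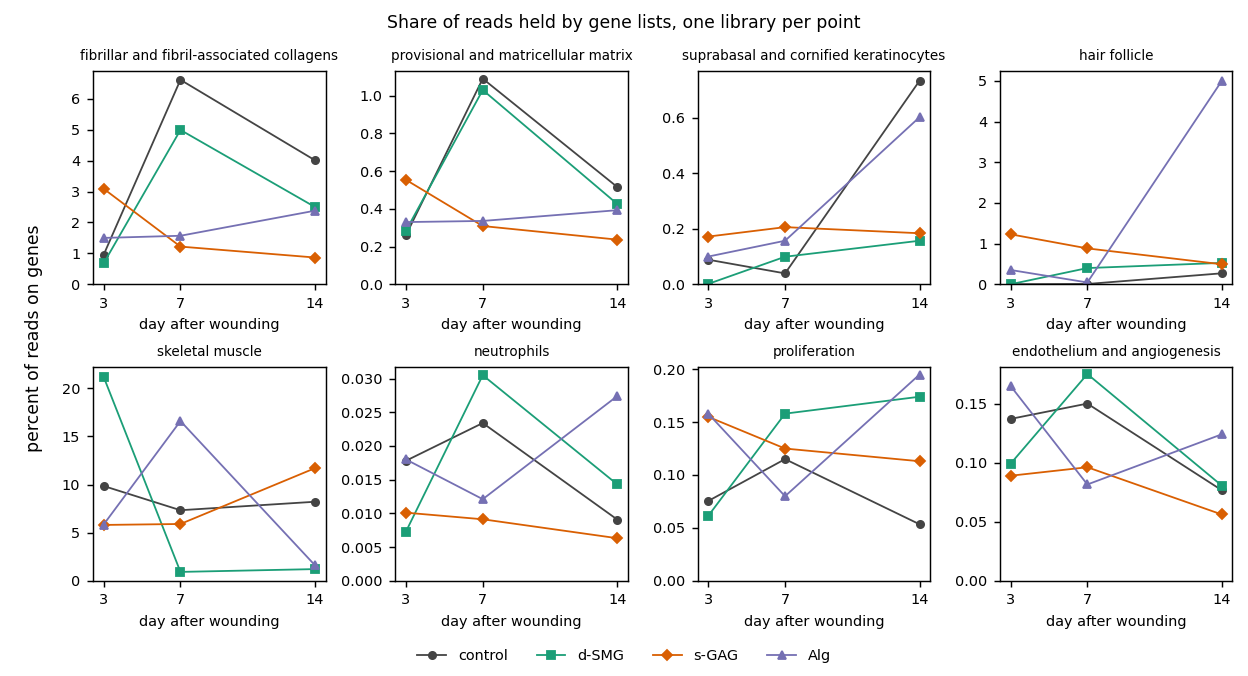
Share of reads on genes held by 8 gene lists (vertical axes, percent) on days 3, 7 and 14 after wounding, with 1 library a point and 1 line for each treatment. The hair follicle share of the Alg wound goes from 0.0462% on day 7 to 5.0% on day 14, and the skeletal muscle share of the same wound from 16.6% to 1.61%.

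Leukocyte genes showed no common change. Macrophage and monocyte genes had a median of -0.34 over 18 genes with pair medians of -0.51, -0.99, -0.59 and 1.5, the Alg pair alone being positive. Without the s-GAG pair the median was -0.01. *Cd68*, a lysosomal marker of macrophages, was measured at 53.6, 88.2, 16.2 and 14.7 CPM on day 7 and 41.3, 20.9, 5.37 and 37.9 CPM on day 14, with overlapping groups. *Cd163*, a scavenger receptor of resident macrophages, was measured at 313, 1024, 276 and 64.5 CPM on day 7 and 662, 164, 27.3 and 1238 CPM on day 14, with lower values on day 14 in the d-SMG and s-GAG wounds and higher values in the control and Alg wounds. Neutrophil genes had a median of -0.74 (-0.80 without the s-GAG pair) over the 8 of 16 that passed the read filter, and the defining granule genes *Mpo* and *Elane* did not pass it. The neutrophil pair medians were -1.58, -1.28, -0.32 and 1.48, again positive in the Alg pair alone. *S100a9*, a calprotectin subunit abundant in neutrophils, was measured at 58.7, 60, 25.3 and 45.4 CPM on day 7 and 7.67, 20.5, 15 and 112 CPM on day 14.

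The cytokine and chemokine list, which also held the arginase gene *Arg1*, had 21 genes tested. Of these, 9 were positive and 12 negative, with a median of -0.12. Without the s-GAG pair the median changed sign to 0.29, with 14 positive. The monocyte attractants *Ccl2* and *Ccl7* were higher in 4 of 4 pairs. *Ccl7* was measured at 1.17, 2.96, 0.961 and 2.44 CPM on day 7 and 1.77, 13, 7.04 and 4.73 CPM on day 14, a change of 1.66 ± 0.49 (nominal). *Ccl2* had a change of 1.13 ± 0.40 (nominal) and *Ccl5*, a T cell attractant, of 1.37 ± 0.56 (nominal), while *Ccl3*, made by macrophages, was lower without overlap at -1.08 ± 0.41 (nominal). *Il1b* was measured at 28, 15.8, 8.85 and 8.69 CPM on day 7 and 11.6, 25.3, 6.69 and 27.1 CPM on day 14, lower in 2 pairs and higher in 2. *Il6* and *Il17a* were below the read filter. Interferon response genes had opposite pair medians, at 1.5, 0.25, -1.54 and -0.28, around a fitted median of -0.04, or 0.55 without the s-GAG pair.

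Immediate early genes had 15 of 17 positive values and a median of 0.43 (0.59 without the s-GAG pair). *Fosb*, an AP-1 subunit, was measured at 0.898, 1.8, 0.86 and 0.272 CPM on day 7 and 6.09, 23.4, 1.46 and 0.64 CPM on day 14, a change of 2.22 ± 0.61 (nominal, adjusted p = 0.0457 in DESeq2). It was higher in each pair, at low levels outside the control and d-SMG wounds of day 14. The 19 cholesterol synthesis genes had a median of 0.30, the 13 adipocyte genes 0.60, the 15 glycolysis and hypoxia genes -0.01 and the 20 genes of the secretory pathway and unfolded protein response 0.12, each list with 0 genes at p under 0.05. Without the s-GAG pair these medians were 0.31, 0.50, -0.18 and -0.12, so that the secretory list changed sign. The 14 housekeeping genes had a median of 0.09, and of 0.05 without that pair.

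Skeletal muscle genes moved with the library more than with the day. Their 20-gene median was 0.01 in the fit, 0.18, 0.66, 1.55 and -3.61 in the pairs and -0.83 without the s-GAG pair, with 0 genes at p under 0.05. *Ttn*, titin, was measured at 3110.0, 166, 1848 and 4555 CPM on day 7 and 2918, 129.5, 173 and 492 CPM on day 14. It was lower on day 14 in each pair, and its long transcript was scarce in the s-GAG wound of day 14 although the muscle list held 11.7% of reads there. Other lists with few members, those of wound edge keratins, erythroid cells, mast cells, melanocytes, nerve, T and NK cells and muscle regeneration, had medians of 0.39, 0.97, 0.05, 1.55, 0.02, 0.14 and -0.38, with at most 1 gene a direction at p under 0.05. Without the s-GAG pair they were 0.54, 0.37, 0.12, 0.39, -0.07, -0.07 and -0.09, so that the erythroid, melanocyte and muscle regeneration medians were closer to 0 and those of nerve and of T and NK cells changed sign. The part of these tissues in the differences above was not tested.

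The step from day 7 to day 14 was set against the step from day 3 to day 7, to see whether the lower genes had first been higher. On day 3 *Tnn* stood at 35.4, 37.6, 189 and 34.5 CPM, scaled here over all 12 libraries. By day 7 it stood at 1311, 837, 189 and 376 CPM, and by day 14 at 126, 96.8, 32.2 and 74.4 CPM. Levels were thus highest on day 7 in the control, d-SMG and Alg wounds, and in the s-GAG wound the day 3 level was close to that of day 7. The fitted change of the first step was 3.15, and the second step minus the first was -6.09 (nominal). For *Col12a1* the values were 37, 134, 255 and 122 on day 3 and 3364, 992, 214 and 429 on day 7, a first step of 2.49 and a difference of -5.04 (nominal). *Krt2* stood at 1.34, 1.34, 8.25 and 11.4 on day 3 and 0.543, 1.0, 6.89 and 1.33 on day 7, with a difference of 3.51 in the opposite direction (nominal). *Cfb* had been high on day 3, at 437, 138, 158 and 214, was low on day 7 and was high again on day 14, with a difference of 4.75 (nominal).

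Over all 15354 genes the test of the 2 steps against each other gave 0 genes at an FDR under 0.05 in edgeR and 5 in DESeq2. At an unadjusted p under 0.05 the second step was above the first for 81 genes (0.528%) and below it for 191 (1.24%), together 272 genes, or 103 without the control pair and 486 without the s-GAG pair. Of the 12 lower genes 11 were among the latter and of the 12 higher genes 5 were among the former, but the day 7 libraries enter both steps and these genes had been chosen on the second, so nothing is read from the counts. *Asprv1* is an example of a gene without such a turn, with a first step of 1.14 and a difference of 0.68 (not nominal). *Col1a1* had a first step of 0.90 and a difference of -0.98 (not nominal).

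Control and dressed wounds were compared for the same step, with 3 dressed pairs against 1 control pair. In the test of the difference, 0 genes passed an FDR of 0.05 in edgeR with all pairs, 402 had an unadjusted p under 0.05 (2.7%), 155 with the dressed change above the control change (1.04%) and 247 below it (1.66%), and DESeq2 called 36. Without the Alg pair, an alternative added after seeing the data that leaves 1 residual degree of freedom, 70 of 15179 genes passed and 920 had an unadjusted p under 0.05, whereas 0 passed without the d-SMG or the s-GAG pair, so the 70 calls are not used here. Since the control is 1 pair, any difference is one between that pair and the others, and the rats and the treatment cannot be told apart.

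Among the 21 matrix metalloproteinase and inhibitor genes, 6 had an unadjusted p under 0.05 for the difference, around a list median of 0.61. The dressed change was above for 5, beside 1.04% of all genes, and below for 1, beside 1.66%. *Mmp13*, a collagenase of wound fibroblasts, was measured at 38.4, 13.3, 11.5 and 27.4 CPM on day 7 and 0.786, 16.3, 15.5 and 17.9 CPM on day 14. It was about level in the d-SMG and s-GAG wounds, lower in the Alg wound, and far lower in the control wound on day 14, with a dressed minus control difference of 5.64 (nominal). *Mmp9*, the gelatinase of neutrophils and keratinocytes, was measured at 21.5, 9.18, 4.4 and 10 CPM on day 7 and 0.836, 10.7, 12.5 and 4.41 CPM on day 14, a difference of 4.87 (nominal). *Mmp11* went the other way at -2.93 (nominal), as did *Mmp3* at -1.03 (not nominal). In the provisional matrix list 3 of 15 genes had p under 0.05, all above, beside 1.04% of all genes. One of them, *Tnc* (tenascin-C), a matrix protein of early wounds, was measured at 882, 157, 190.0 and 113 CPM on day 7 and 28.6, 163, 88.8 and 177 CPM on day 14, a difference of 4.82 (nominal). The control wound was highest on day 7 and lowest on day 14 for *Mmp13*, *Mmp9* and *Tnc*. That day 14 level rested on 16 reads for *Mmp13* and 17 reads for *Mmp9*. *Timp1*, a metalloproteinase inhibitor, had a difference of 4.48 (nominal) and *Arg1*, an arginase of repair macrophages, of 3.95 (nominal). *Arg1* was 1 of 4 cytokine and chemokine list genes of 21 with p under 0.05, all above, beside 1.04% of all genes. The others were the neutrophil attractants *Cxcl1*, *Cxcl3* and *Cxcl6* at 4.58, 7.58 and 6.15, and the list median was 1.40.

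Several lists had the dressed change below the control change. The cornified list had a pair median of 4.01 in the control wound and of 0.30 to 2.36 in the dressed wounds, and 12 of its 21 genes had an unadjusted p under 0.05 for the difference, all with the control change above, beside 1.66% of all genes and around a median difference of -3.85. *Flg* (filaggrin), which bundles keratin in the cornified layer, was measured at 5.04, 7.77, 18.9 and 18 CPM on day 7 and 284, 3.2, 25 and 54.6 CPM on day 14, a difference of -5.54 (nominal). The control wound went from the lowest level on day 7 to the highest on day 14, and the d-SMG wound was lower on day 14 than on day 7. The 10 muscle regeneration genes tested had a median difference of -4.04 with 5 at p under 0.05, among them *Myog*, a transcription factor of muscle differentiation, at -4.09 and *Chrng*, the fetal acetylcholine receptor subunit, at -5.25. The 19 interferon response genes had a median of -1.82 with 4 at p under 0.05, *Mx2*, *Ifit1*, *Rsad2* and *Irf7*, and the 11 Schwann cell and nerve genes a median of -1.96 with 3. All 12 of these muscle, interferon and nerve genes were below, beside 1.66% of all genes. The share of skeletal muscle reads differed widely between the libraries, as given above, and its part in these differences was not tested.

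The 24 proliferation genes had a fitted median of 0.16 and 0 with p under 0.05 between the days, with pair medians of -1.30, 0.25, 0.76 and 1.11. Without the s-GAG pair the fitted median changed sign to -0.07, with 11 genes positive in place of 17. For the difference between dressed and control wounds 9 of the 24 cell cycle genes had an unadjusted p under 0.05, all with the dressed change above, beside 1.04% of all genes. *Mki67*, the usual marker of cycling cells, was measured at 252, 274, 294 and 186 CPM on day 7 and 117, 332, 341 and 388 CPM on day 14, with a difference of 1.62 (not nominal). The control value was lower on day 14 and the 3 dressed values were higher. *Ccnb2*, a mitotic cyclin, was measured at 16.3, 18.9, 12.6 and 9.03 CPM on day 7 and 4.08, 22.5, 31.2 and 21.2 CPM on day 14, with a difference of 2.93 (nominal).

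**Figure D4:**
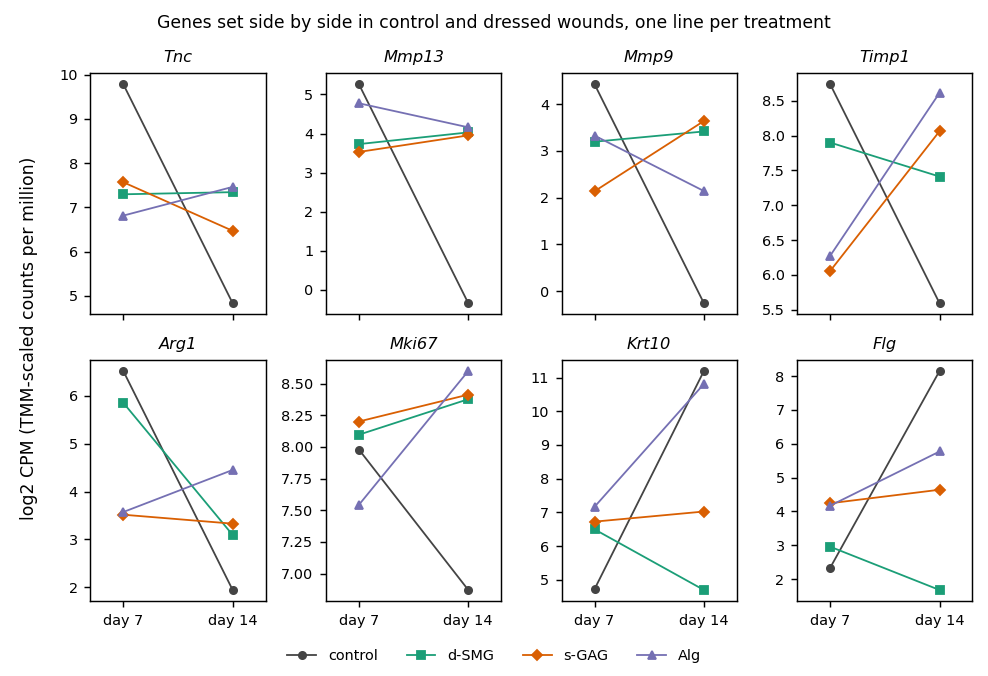
Level of 8 genes as log2 CPM (vertical axes) on day 7 and day 14, with 1 line for each treatment. The control line runs down from the highest day 7 point for *Tnc*, *Mmp13*, *Mmp9*, *Timp1* and *Arg1* and up from the lowest for *Krt10* and *Flg*; *Mmp13* in the control wound goes from 38.4 to 0.786 CPM while the dressed wounds stay between 11.5 and 27.4 CPM.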

How the data were processed

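RNA of rat wound skin was sequenced from stranded, rRNA-depleted libraries as paired reads. The authors deposited whole-number read counts for 25620 genes and FPKM values for 25524, which they had scaled by transcript length and depth. The submitters' processing notes name bcl2fastq, FastQC, TopHat2 and edgeR; genome build, annotation and counting tool are not given in the sources used here. Each table holds 1 further value column that matches no sample and was not used. From the counts, edgeR 4.0.16 (R 4.3.3) was run with TMM scaling, filterByExpr on day, and treatment and day as terms (3 residual degrees of freedom, biological coefficient of variation 0.462), two-sided, with Benjamini-Hochberg adjustment. DESeq2 1.42.0, limma 3.58.1 (voom, and log2 FPKM with pseudocounts of 1 and 0.1), other scalings, filters, designs and left-out pairs were alternatives. Scripts were tested on simulated data. The labels give no replicate numbers, and libraries of different days were paired by their labelled treatment. The deviations of the same treatment on both days correlated at 0.323, 0.272, 0.158 and -0.465 (control, d-SMG, s-GAG, Alg). Depth was 13748887 to 38302461 reads. For the day comparison, p-values set the change against how far the 4 treatment pairs differed in it, and treatment and rats cannot be told apart in that spread. Named genes are a fixed panel, the 12 with the smallest p in each direction with a mean of at least 100 reads in the higher day and no provisional symbol, and, from each list with no called gene, the 2 members with the smallest p; others were chosen after their values were seen. Of the 12 lower genes, 1 is not reported here. The genes and the 31 lists were chosen with earlier results of these data known.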

Additional observations from a re-analysis of the deposited data

Results flagged for a closer look

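Single libraries that lay far from the other 3 of their day were looked for among the named genes and the gene lists, by comparing the gap to the nearest library with the range of the day; 15 of 292 groups of 4 (5.14%) stood out, and chance alone gives about 1 in 20.

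On day 14 the s-GAG wound was low for *Col12a1* (5.76 on the log2 CPM scale against 7.56 to 7.82), *Lox* (4.86 against 7.15 to 7.36) and *Itgax* (1.71 against 4.21 to 4.71), and high for the share of reads on melanocyte genes (0.0183% against 0.003 to 0.00555%). The control wound of day 14 was low for *Mmp13* (-0.35 against 3.95 to 4.16) and *Mki67* (6.87 against 8.38 to 8.6). The d-SMG wound of day 14 was low for *Ivl* (5.43 against 7.45 to 7.64) and high for *Cd3g* (2.56 against 1.62 to 1.74). The Alg wound of day 14 was high for *Fn1* (9.27 against 8.42 to 8.54) and for the share of reads on hair follicle genes (5.0% against 0.271 to 0.527%).

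On day 7 the d-SMG wound was low for the muscle genes *Synpo2* (5.65 against 8.95 to 9.43) and *Neb* (9.1 against 12.07 to 12.67) and for *Hk2* (5.43 against 6.09 to 6.23), beside a muscle share of 0.918% of reads. The control wound of day 7 was low for *Pcna* (4.91 against 5.4 to 5.47) and *Gfap* (-1.86 against -0.07 to 0.28). What set these libraries apart was not tested.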

How the results depend on the processing

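Of the 114 named genes, 101 kept the sign of their day 14 over day 7 change in all 14 alternatives. In the edgeR and limma alternatives 0 passed an FDR of 0.05. Many named genes had been chosen by their p-values in the same libraries, so the sign count and the DESeq2 count describe them and test nothing. DESeq2 passed 35 of them, and called 38 genes higher and 28 lower, 5 for the difference between steps and 36 between dressed and control wounds, where edgeR called 0; unadjusted it gave 425 lower genes against 216. Without the low-count filter more genes were tested and the shares stayed close. The unadjusted counts were 388 lower of 24537 (1.58%, against 1.45% with the filter) and 658 for the dressings (2.68% against 2.7%). For the steps they were 420 of 25349 (1.66% against 1.77%). Leaving out 1 treatment pair gave 179 (control) to 479 (Alg) higher genes, 83 (d-SMG) to 620 (Alg) lower genes, 103 (control) to 486 (s-GAG) for the steps, and for the dressings 336 to 920 (Alg) unadjusted and 0 to 70 (Alg) at an FDR of 0.05, the pair named being the one left out. The causes were not tested. The 2 Alg libraries did not deviate together (-0.465), whereas the own-pair correlation was 0.323 for control, 0.272 for d-SMG and 0.158 for s-GAG. Without the treatment as a block 269 genes were higher and 185 lower (383 for the steps). *Col1a1* was then at -0.16, *Top2a* at 0.12, *Cd163* at 0.32 and *Krt6a* at -0.14. Other changes of sign were *Col1a1* with all 12 libraries (-0.082) and *Krt6a* by library size (-0.021) and log2 FPKM (-0.082 with a pseudocount of 1 and -0.078 with 0.1). With 1 pair left out the changes ranged for *Adipoq* -0.11 to 1.17, *Cd163* -1.81 to 0.98, *Cma1* -0.0090 to 0.46, *Col1a1* -0.21 to 0.29, *Col3a1* -0.53 to 0.012, *Il1b* -0.34 to 0.59, *Krt6a* -0.24 to 0.53, *Lox* -0.95 to 0.034, *Mki67* -0.20 to 0.46, *Mmp9* -1.68 to 0.14, *Tgfb1* -0.21 to 0.25, *Timp1* -0.53 to 1.28 and *Top2a* -0.67 to 0.21. These genes had an unadjusted p of 0.387 or more with all pairs. For list medians a move was counted only beyond the standard deviation of the 4 pair medians, and 0 of 434 comparisons reached it. Leaving out 1 of 4 pairs can hardly move a median that far, so nothing is read from that count. The hair follicle median ran from 0.84 to 3.50 with 1 pair left out, and several list medians changed sign without the s-GAG pair, as given above. Scaling by library size put the median of all genes at -0.08.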
